A study of Mus musculus with 9 samples.

Results

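The constitutive proteasome of 3 mouse stromal cell lines was described from the transcripts of its subunits. Its members were every probe set whose array annotation gave exactly 1 symbol made of Psma, Psmb, Psmc or Psmd and a number, without the immunoproteasome subunits Psmb8, Psmb9 and Psmb10. That rule gave 36 genes (16 of the core particle, 20 of the regulatory particle or its assembly) and 62 probe sets, of 15964 genes and 36701 probe sets in all. AGM-s3-A9 and AGM-s3-A7 are stromal lines from the mouse aorta-gonad-mesonephros (AGM) region, where definitive blood stem cells arise in the embryo. The labels call AGM-s3-A9 supportive and AGM-s3-A7 non-supportive of hematopoiesis. OP9, the other supportive line, came from the skull cap (calvaria) of newborn mice. No treatment, genotype, strain, passage or culture condition is given for any of the 3 lines. Each line has 1 array of total RNA on each of 3 Affymetrix types (MG-U74A, then B and C of that set), 9 arrays in all. Where 3 intensities stand together without line names, AGM-s3-A9 comes first, AGM-s3-A7 next and OP9 last.

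The proteasome is the protease that degrades ubiquitin-tagged proteins. Its barrel-shaped core particle is built of outer rings of alpha subunits (Psma genes), which gate the entrance, and inner rings of beta subunits (Psmb genes), of which Psmb5, Psmb6 and Psmb7 carry the cutting sites. A regulatory particle caps the barrel: a base of ATPases (Psmc genes) unfolds the substrate, and further Psmd subunits recognise, de-ubiquitinate and position it. Interferon-inducible Psmb8, Psmb9 and Psmb10 take the places of Psmb5, Psmb6 and Psmb7 in the immunoproteasome.

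The arrays measured intensity in arbitrary units, and with 1 array per line and type no difference could be tested: there is no p-value, and sizes are set beside measurement error. As deposited, the AGM-s3-A9 MG-U74A array was the brightest of its type, with a median of 64.5 where AGM-s3-A7 and OP9 had 42.7 and 42.8, so values were quantile-normalized within array type. Without that step the median over all measured MG-U74A probe sets stood at a log2 ratio of 0.62 in AGM-s3-A9 over AGM-s3-A7, and of 0.52 when OP9 was the denominator, and the statements on direction below are relative to that shift. A value counted as above detection past 49.0, 52.8 and 61.6 on the 3 array types. The spread between probe sets of the same gene served as the error of a log2 ratio: its robust SD was 0.30 for AGM-s3-A9 over AGM-s3-A7 (1160 genes), 0.32 for OP9 over AGM-s3-A7 (1134 genes) and 0.33 for AGM-s3-A9 over OP9 (1128 genes). Where both probe sets had a mean intensity of at least 200 it was 0.25, 0.27 and 0.31; statements on the error below use the wider values unless they say otherwise. Within the error means smaller than 1 such SD, and a ratio past it is not thereby shown to be a difference. This error covers neither culture nor RNA preparation. Of the stromal markers, 7 of 8 were above detection in at least 1 line, Vim being the exception, and their summed intensity was 19267, 19518 and 9532. Thy1 was below detection in OP9, so 6 of 8 were above it in all lines. Of the leukocyte markers 1 of 7 (Cd14) was above detection, Ptprc, Adgre1 and Cd68 not being so, as were 0 of 5 endothelial and 2 of 4 epithelial markers (Cdh1 and Epcam).

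Proteasome subunit transcripts were broadly present in all 3 lines. Of the 36 genes, 32 had a probe set above detection in every line. The 4 others, namely Psma8 (a testis subunit), Psmb11 (a thymus subunit), the ATPase Psmc4 and the scaffold subunit Psmd2, had no probe set above detection in any line. Psmc4 and Psmd2 belong to every regulatory particle. Their MG-U74A intensities were 8.24, 7.44 and 22.2 for Psmc4 and 24.0, 15.4 and 5.27 for Psmd2, all below the detection level of 49.0. Whether these probe sets find their transcripts was not tested, so the values do not show that the transcripts are absent. Among probe sets, 39 of 62 members (62.9%) were above detection in all lines, against 27.8% of all probe sets, and on MG-U74A 37 of 44 (84.1%) against 44.6%.

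The levels differed little between lines. For the brightest probe set of each of the 32 genes, the highest line stood over the lowest by a median of 1.33-fold (lowest 1.03, highest 2.18), and 23 of 32 genes (71.9%) stayed under 1.5-fold. Of the 5541 MG-U74A probe sets above detection in all 3 lines, 56.6% stayed under 1.5-fold and 16.0% reached 2-fold, with a median of 1.44. Among brighter probe sets, of mean intensity of at least 200, 21 of 28 subunit genes and 54.9% of 2743 MG-U74A probe sets stayed under 1.5-fold. The members' median range was 1.33 to 1.35 under the 3 other scalings and 1.80 with values as deposited, where the overall brightness of the arrays enters it.

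**Figure D1:**
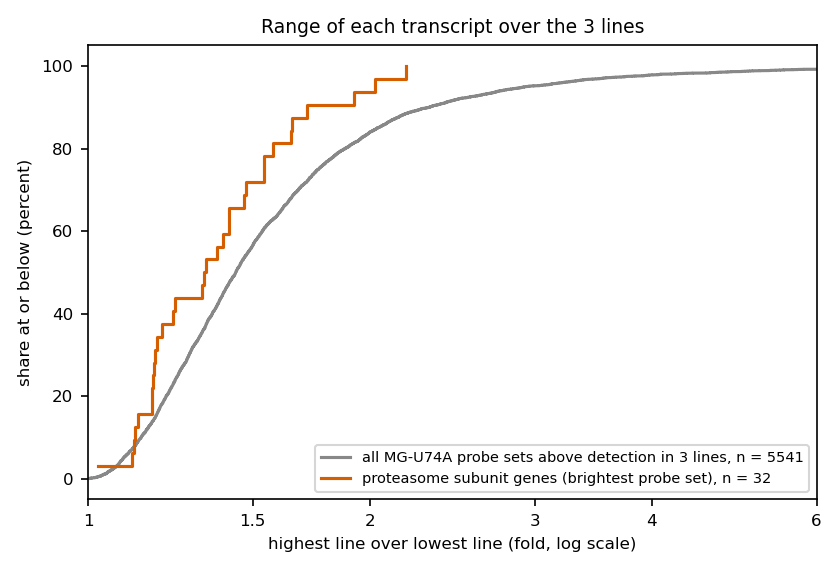
Cumulative share of genes or probe sets (percent) by the ratio of the highest to the lowest of the 3 lines (fold, log axis), for 32 proteasome subunit genes on their brightest probe set and for 5541 MG-U74A probe sets above detection in all lines. The subunit curve lies above the other over most of its course and ends at 2.18, where the other goes on, past the end of the axis, to 42.3.

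Counted by line, 19 of the 32 genes (59.4%) had their highest intensity in OP9, 10 in AGM-s3-A9, and 3 (9.38%) had it in AGM-s3-A7. Over all 10190 probe sets above detection in every line, the share highest was 39.7% in OP9, 29.8% in AGM-s3-A9 and 30.5% in the non-supportive line. The lowest line was AGM-s3-A7 for 14 genes (43.8%), AGM-s3-A9 for 12 (37.5%) and OP9 for 6 (18.8%), beside 32.2%, 34.5% and 33.4% of all 10190 probe sets. OP9 was highest for 17 or 18 genes under the other scalings but for 4 with values as deposited, where AGM-s3-A9 was highest for 28. Many of these orders rest on differences inside the measurement error: Psmc6 read 1073, 1083 and 1100.

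**Figure D2:**
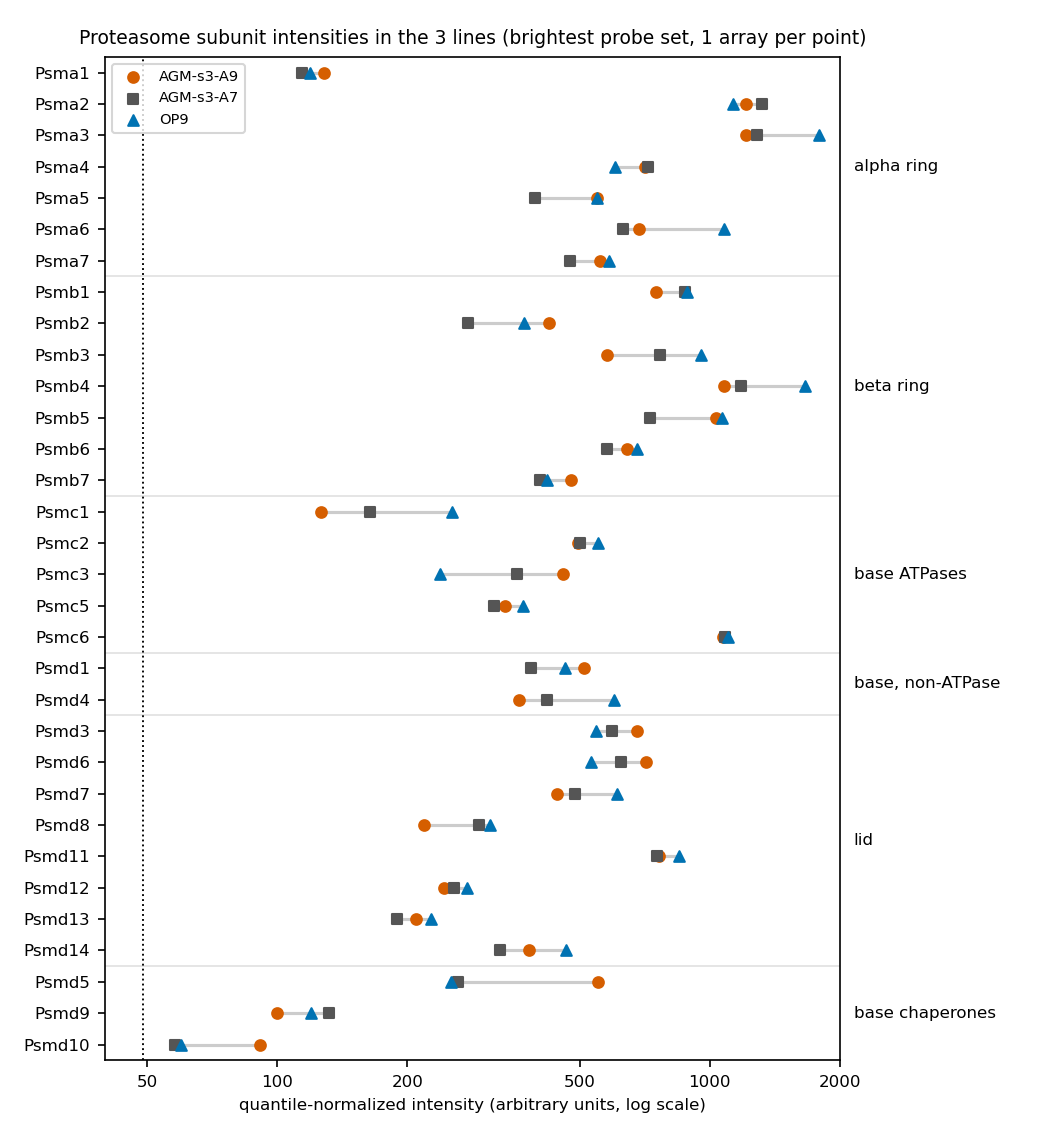
Quantile-normalized intensity (arbitrary units, log axis) of the brightest probe set of each of 32 subunit genes in the 3 lines, 1 array per point, grouped by place in the proteasome; the grey bar spans the 3 lines and the dotted line is the MG-U74A detection level of 49.0. Most bars are short, the widest belonging to Psmd5 and Psmc1; brightness differs between probes, so genes are not to be ranked by level.

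The alpha ring forms the gate and docking surface of the core particle, and 7 of its 8 genes were measured. Psma6 differed most: it read 687, 630 and 1079. OP9 stood above both AGM lines, by a log2 ratio of 0.78 over AGM-s3-A7, and AGM-s3-A9 over OP9 was -0.65. Psma3 was likewise highest in OP9, with 1215, 1285 and 1792, though on a probe set whose suffix f marks a sequence family that other transcripts may share. Psma5 was alike in both supportive lines, at 549 and 548, against 394 in AGM-s3-A7, a log2 ratio of 0.48 for each. Psma2 (1210, 1323 and 1130) and Psma4 (708, 718 and 605) had log2 ratios of -0.23 and -0.25 in OP9 over AGM-s3-A7, within the error of 0.32. Psma1 (128, 114 and 119) also stayed within the error in every comparison. So did Psma7 (559, 475 and 585), although its log2 ratio of 0.30 in OP9 over AGM-s3-A7 is above the 0.27 found for brighter probe sets.

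In the beta ring, 7 of 8 genes were measured, and each of the 7 was at or above its AGM-s3-A7 level in OP9. Their median log2 ratio was 0.32, and 53.2% of all genes were above 0 in this comparison. Psmb1, Psmb6 and Psmb7, at 0.01, 0.23 and 0.05, were inside the error. Under 75th percentile and trimmed mean scaling 6 of 7 were above 0, with medians of 0.26 and 0.30. Under median scaling and with values as deposited 7 of 7 were. Psmb4 read 1077, 1180 and 1661, highest in OP9, on a probe set with the family suffix. Psmb3 read 580, 767 and 955, with the supportive lines at opposite ends: the log2 ratio of AGM-s3-A9 over OP9 was -0.72. Psmb2, whose product lies in the inner ring without a cutting site, was highest in AGM-s3-A9 (426, 276 and 373), with a log2 ratio of 0.63 over AGM-s3-A7. Psmb1 (753, 877 and 885) stayed within the error in all 3 comparisons.

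Among the catalytic subunits, the differences were largest for Psmb5, which carries the chymotrypsin-like activity. On its brightest probe set (MG-U74B) it read 1035, 729 and 1068, so that the non-supportive line was low and the supportive lines lay within 0.04 of each other on the log2 scale. A second bright probe set, on MG-U74A, gave the same order with wider gaps: 926, 565 and 1073, or log2 ratios of 0.71 for AGM-s3-A9 and 0.93 for OP9 over AGM-s3-A7. The letter suffixes of both mark possible matches to other transcripts. The third, without a suffix but close to detection at 55.6, 69.3 and 65.3, had log2 ratios of -0.32 and -0.09 for these comparisons. On MG-U74B the AGM-s3-A9 array was the dimmest as deposited, and the brightest Psmb5 probe set read 833, 776 and 1257 there. AGM-s3-A9 then had log2 ratios of 0.10 over AGM-s3-A7 and -0.59 over OP9. The closeness of the supportive lines thus rests on correcting array brightness. Psmb6, with the caspase-like site, read 645, 580 and 680. Psmb7, with the trypsin-like site, read 479, 406 and 421 on a probe set with the family suffix. All 6 log2 ratios of Psmb6 and Psmb7, the largest being 0.24, were inside the error.

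The immunoproteasome counterparts were not members and had another order. Psmb8 read 815, 568 and 294, and Psmb10 read 606, 411 and 200. AGM-s3-A9 was thus above OP9 by log2 ratios of 1.47 and 1.60, where the corresponding values for Psmb5, Psmb6 and Psmb7 were -0.04, -0.08 and 0.19. Psmb9 read 134, 77.2 and 76.0. Against AGM-s3-A7, OP9 was lower for Psmb8 and Psmb10, at -0.95 and -1.04, and AGM-s3-A9 was higher for all 3, at 0.52 to 0.80, while Psmb9 in OP9, at -0.02, was level with AGM-s3-A7. The plot of catalytic subunits shows both sets.

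**Figure D3:**
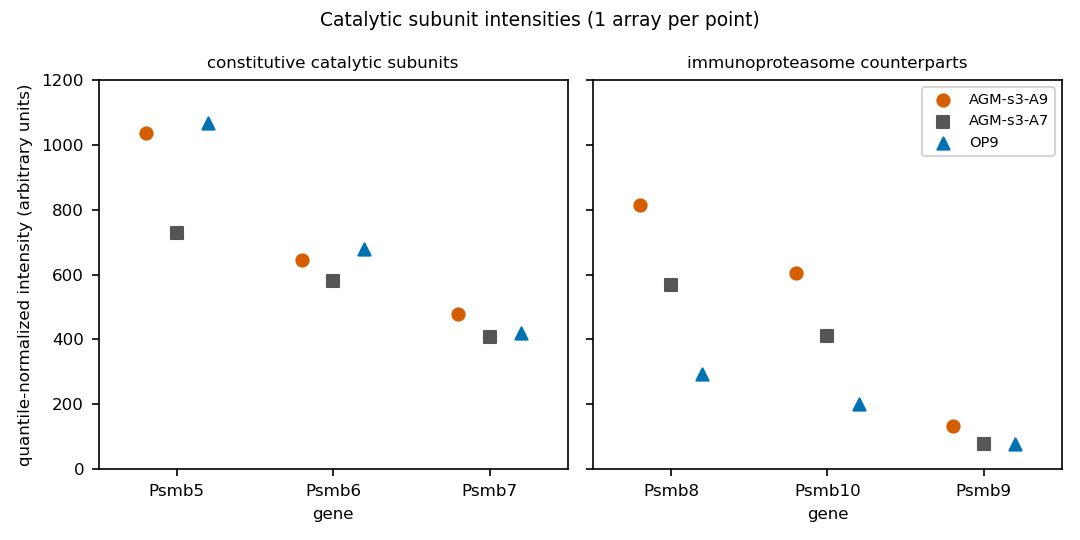
Quantile-normalized intensity (arbitrary units, linear axis from 0) of the constitutive catalytic subunits and their immunoproteasome counterparts in the 3 lines, 1 array per point. Psmb8 and Psmb10 are highest in AGM-s3-A9 (815 and 606) and lowest in OP9 (294 and 200), whereas OP9 is the highest line for Psmb5 and Psmb6; only points of the same gene are to be compared.

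The ATPases of the base unfold substrates, and 5 of 6 were measured. Psmc1 read 126, 164 and 254, lowest in AGM-s3-A9 and highest in OP9. Among member probe sets it alone reached 2-fold lower in AGM-s3-A9 over OP9, with a log2 ratio of -1.02, on the edge of the threshold: median scaling gave -0.97 and the values as deposited -0.37. Psmc3 ran the other way on its 3 MG-U74A probe sets. The brightest read 457, 359 and 238, and the others 322, 285 and 219, and 109, 88.2 and 74.6, so each was highest in AGM-s3-A9 and lowest in OP9. A dim MG-U74C probe set of Psmc3 went against them, with 62.8 in AGM-s3-A9, 118 in OP9 and a value below detection in AGM-s3-A7. The log2 ratio of AGM-s3-A9 over OP9 was therefore 0.94, 0.56, 0.55 and -0.91 on the 4 probe sets, and since all 3 MG-U74A probe sets carry a suffix for shared or incomplete sequence, Psmc3 has no settled direction here. Psmc2 (497, 502 and 553), Psmc5 (337, 317 and 371) and Psmc6 stayed within the error on their brightest probe sets. A dimmer MG-U74B probe set of Psmc6 read 170, 127 and 209, a log2 ratio of 0.71 for OP9 over AGM-s3-A7 where the brightest gave 0.02.

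The other base subunits bind ubiquitin chains or anchor their receptors. Psmd4, the ubiquitin receptor that sits between base and lid, read 363, 421 and 600. On this probe set OP9 was the high line and both AGM lines were low: the log2 ratio was 0.51 in OP9 over AGM-s3-A7, and AGM-s3-A9 over OP9 gave -0.72. A dim MG-U74C probe set of Psmd4 read 62.1 in AGM-s3-A9, just above detection, and was below detection in the other lines, which gives a bound of 0.01 for AGM-s3-A9 over either. Psmd1, the large scaffold subunit, read 513, 386 and 463, highest in AGM-s3-A9 by a log2 ratio of 0.41 over AGM-s3-A7.

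The lid removes ubiquitin from the substrate, and its transcripts differed little between the lines. All 8 of its genes were measured, and in each of the 3 comparisons 8 of 8 stayed within 1.5-fold on their brightest probe set. Of all measured genes on theirs, 80.8% did so in AGM-s3-A9 over AGM-s3-A7, 72.4% in OP9 over AGM-s3-A7 and 71.4% between the supportive lines. Psmd14, the deubiquitinase of the lid, read 382, 328 and 464, with a log2 ratio of 0.50 for OP9 over AGM-s3-A7. Psmd8 was lowest in AGM-s3-A9, at 219 against 293 and 310, and Psmd7 read 444, 487 and 610. Psmd6 was ordered the opposite way, at 711, 625 and 531, with Psmd3 like it at 678, 595 and 547. Psmd12 (243, 256 and 275) and Psmd13 (209, 189 and 227) stayed within the error. Psmd11 had 3 measured probe sets: the brighter pair read 763, 755 and 847, and 262, 233 and 345, but a dim one whose suffix marks relaxed probe selection read 87.6, 50.5 and below detection. That dim one gave AGM-s3-A9 over OP9 a log2 ratio of 0.84, a lower bound, where the others gave -0.15 and -0.40.

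**Figure D4:**
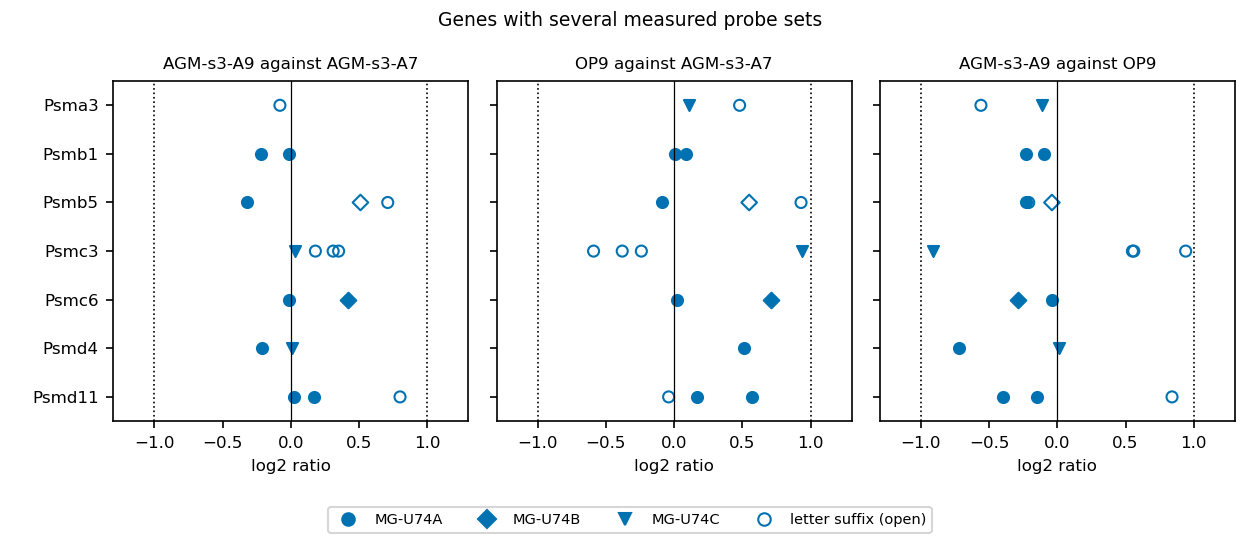
Log2 ratio of every measured probe set of the 7 subunit genes that have at least 2, in the 3 comparisons, marked by array type, with open symbols for probe sets whose name carries a letter suffix; dotted lines are at 2-fold. Psmb1 probe sets lie close together, whereas those of Psmc3 span -0.91 to 0.94 in AGM-s3-A9 over OP9 and those of Psmb5 span -0.32 to 0.71 in AGM-s3-A9 over AGM-s3-A7.

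The assembly chaperones held the widest difference. Psmd5, Psmd9 and Psmd10 carry subunit names but bind ATPases while the base is built and are absent from the finished particle. Psmd5 read 551, 262 and 252. AGM-s3-A9 alone was high, and the other lines, a supportive one among them, differed by 0.06 on the log2 scale. No other member reached 2-fold higher in this line, which exceeded the others by log2 ratios of 1.07 (AGM-s3-A7) and 1.13 (OP9). This rests on 1 MG-U74A probe set, since the MG-U74B and MG-U74C probe sets of Psmd5 were below detection in all lines. Psmd10 (gankyrin) was likewise highest in AGM-s3-A9, at low intensity, 91.5 against 58.1 and 60.0, with log2 ratios of 0.66 and 0.61. Psmd9 was lowest in AGM-s3-A9, at 100, 132 and 120, on a probe set with relaxed selection; its log2 ratio against AGM-s3-A7 was -0.40, and it was 0.32 with values as deposited.

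**Figure D5:**
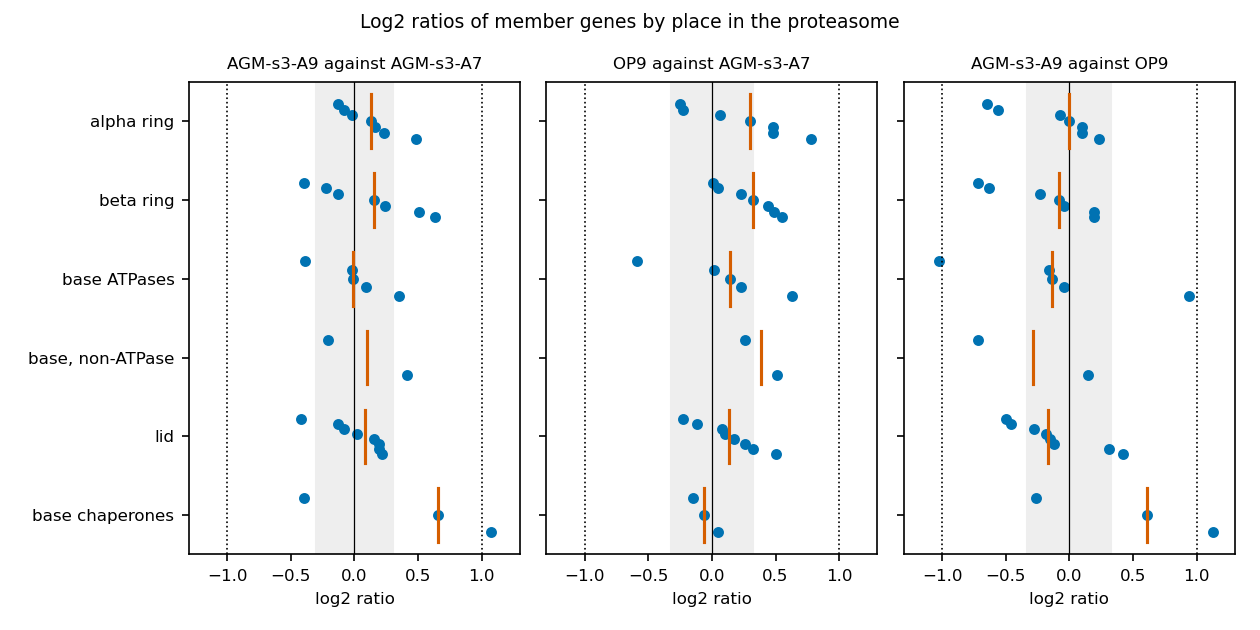
Log2 ratio of each measured subunit gene on its brightest probe set in the 3 comparisons, by place in the proteasome; orange bars are group medians, the grey band is the robust SD between probe sets of 1 gene (0.30, 0.32 and 0.33) and dotted lines are at 2-fold. Psmd5 lies past the 2-fold line in both comparisons of AGM-s3-A9, and Psmc1 past it in AGM-s3-A9 over OP9, while no gene reaches it in OP9 over AGM-s3-A7.

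Over all member probe sets, AGM-s3-A9 over AGM-s3-A7 gave a median log2 ratio of 0.14 over 42 measured (SD over probe sets 0.34), against -0.01 over all 13139 measured (SD 0.50). Of the 42, 26 (61.9%) were above 0 and 16 below, where 49.0% of all measured probe sets were above 0. At 2-fold, 1 was higher and 0 were lower, where 2.88% and 2.18% of all measured probe sets were higher and lower. At 1.5-fold, 5 (11.9%) were higher and 0 lower, where 9.80% and 9.22% of all were. The share higher is thus near the background, and 0 of 42 lower stands beside 9.22%. The core particle had a median of 0.13 and the regulatory particle 0.15. The median was 0.73 with values as deposited, where all MG-U74A probe sets had 0.62.

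OP9 over AGM-s3-A7 uses the same AGM-s3-A7 arrays, so these comparisons are not independent. Its member median was 0.15 over 42 (SD 0.35), against 0.03 over 13467 (SD 0.68), and 31 of 42 members (73.8%) were above 0, against 52.6% of all. None of the 42 was at least 2-fold higher or lower, where 4.77% and 5.52% of all measured probe sets were. At 1.5-fold, 5 were higher and 1 lower (11.9% and 2.38%), beside 13.7% and 13.1% of all. The core particle median was 0.27, with 15 of 18 probe sets above 0, and that of the regulatory particle 0.12, with 16 of 24. Without probe sets that carry a suffix the order turned, with a core median of 0.11 and a regulatory median of 0.24.

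AGM-s3-A9 over OP9, the comparison of the supportive lines, gave a median of -0.11 over 43 members (SD 0.47), against -0.03 over 13443 (SD 0.68), and turned to 0.49 with values as deposited, where all MG-U74A probe sets had 0.52. At 2-fold 1 member was higher and 1 lower (Psmd5 and Psmc1), where 5.96% and 4.63% of all measured probe sets were higher and lower. At 1.5-fold 4 were higher and 6 lower (9.30% and 14.0%), beside 13.1% and 14.1% of all. The core median was -0.09 and the regulatory median -0.14. Differences in RNA amount per cell cannot be told apart from differences in which cells made up a culture.

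Cell-cycle transcripts were lowest in AGM-s3-A7 for 6 of 7 genes measured. That line was lowest for 14 of 32 subunit genes and for 32.2% of all probe sets above detection in every line. Over these 7 proliferation genes the summed intensity was 1801, 1262 and 1403. The median log2 ratio was 1.19 in AGM-s3-A9 over AGM-s3-A7, 0.86 in OP9 over AGM-s3-A7 and 0.40 between the supportive lines. Aurkb and Tpx2 were below detection in AGM-s3-A7, so their ratios to it are bounds. Mki67 read 133, 51.3 and 95.4, while Mcm5 was highest in AGM-s3-A7 (443, 548 and 339). The part of proliferation in the subunit differences was not tested.

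Promoter sequence was read for 29 of the 36 genes with a RefSeq window of 300 bases (GRCm38.p6), 250 before the start and 50 after. Nfe2l1 (Nrf1) is the factor known to raise proteasome genes when proteasomes are inhibited, through antioxidant response elements. The core of that element, TGACNNNGC searched on both strands, was present in 5 of 31 member windows (16.1%), against 2759 of 21262 protein-coding windows (13.0%), and lay in Psmb5, Psmb6, Psmc6, Psmd9 and Psmd12. CCAAT was present in 38.7% of member windows and 38.2% of all, and the GC box GGGCGG in 58.1% and 46.2%. These shares describe letters only. The 100 bases before the annotated start are shown for Psmb5 (chr14:54617996-54618095, minus strand) and Psmd9 (chr5:123228090-123228189, plus strand), a catalytic subunit and a chaperone with the element, and for Psmd5 (chr2:34870966-34871065, minus strand), the member that differed most, without it. Capitals mark the element in the first pair, where in Psmd9 it overlaps a GC box on the opposite strand. In Psmd5 they mark TCTCGCGAGA, a palindrome singled out after the stretch was read; it occurs there 2 times and was present in 0.673% of all windows and in 1 of the 31 member windows.
Psmb5: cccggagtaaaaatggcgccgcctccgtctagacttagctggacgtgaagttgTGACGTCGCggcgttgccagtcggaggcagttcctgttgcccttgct
Psmd9: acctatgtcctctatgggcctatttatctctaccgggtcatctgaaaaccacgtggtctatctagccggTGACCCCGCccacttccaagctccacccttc
Psmd5: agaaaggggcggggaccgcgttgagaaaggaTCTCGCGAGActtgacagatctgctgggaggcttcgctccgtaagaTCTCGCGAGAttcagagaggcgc

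The regulators of proteasome genes differed by less than 2-fold, Foxm1 apart. Nfe2l1 read 721, 909 and 941, and its relative Nfe2l2 (Nrf2) 360, 321 and 345. Nfe2l1 was thus lowest in AGM-s3-A9, by log2 ratios of -0.33 and -0.38, while Nfe2l2 stayed within 0.17. The list held 10 genes, of which 7 were above detection, and 1 reached 2-fold in any comparison. That was Foxm1, a cell-cycle factor, at 206, 172 and 372, a log2 ratio of 1.11 for OP9 over AGM-s3-A7. Its probe set carries a letter suffix. Keap1 and Nfe2l3 were below detection in all lines.

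Factors that build or open the core particle were measured beside it. Pomp, the maturation factor of the core, read 705, 569 and 816, in the order of Psmb5, with log2 ratios of 0.31 and 0.52 for AGM-s3-A9 and OP9 over AGM-s3-A7. Of the 5 core assembly chaperones, none reached 2-fold, and Psmg2 had the widest difference, at 136, 98.4 and 164. Among the alternative activators, Psme3 (PA28 gamma, a nuclear activator) read 320, 229 and 496 and passed 2-fold in OP9 over AGM-s3-A7, with a log2 ratio of 1.11. Psme1, the interferon-inducible activator, read 847 in AGM-s3-A9 against 442 and 430, log2 ratios of 0.94 and 0.98, just short of 2-fold. Psme4 (203, 264 and 217) and the inhibitor Psmf1 (222, 153 and 208) had smaller differences.

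Proteins that ride on or feed the particle showed no 2-fold difference. Of the list of bound receptors, deubiquitinases and small subunits, 6 genes were on the arrays. All 6 were above 0 in OP9 over AGM-s3-A7, with a median log2 ratio of 0.34, where 53.2% of all genes were above 0. Ecpas, at 0.02, and Uchl5, at 0.15, were inside the error, and the ratio of Uchl5 is a bound. The count was 6 of 6 under each other scaling and with values as deposited, with medians of 0.33 to 0.43. Sem1, the smallest lid component, read 1057, 1193 and 1728, and Akirin2, which carries proteasomes into the nucleus, 578, 565 and 804. The probe sets of both carry a letter suffix. Of the 7 measured genes of ubiquitin supply and shuttling, 5 were below 0 and 2 above in AGM-s3-A9 over AGM-s3-A7. Of all genes, 50.6% were above 0 in that comparison. The median of the 7 was -0.45 and became 0.12 with values as deposited, below the 0.62 of all MG-U74A probe sets there. Nploc4 and Ubqln4 are on MG-U74B, where the AGM-s3-A9 array was the dimmest as deposited, so the 0.62 does not apply to them. The shuttle Rad23b read 167, 326 and 243 on a probe set with the family suffix, and the shuttle Ubqln2 145, 221 and 235. Vcp, the unfoldase that extracts ubiquitinated proteins, went the other way at 1062, 766 and 931.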

How the data were processed

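The deposited values are linear intensities, 1 per probe set, for 9 arrays (3 lines, 3 Affymetrix array types); scanner software: not given in the sources used here. Per the labels, biotinylated cRNA was made from total RNA extracted with an RNeasy kit. Deposited 2% trimmed means of the arrays of a type differed by up to 61.1%, so intensities were quantile-normalized within array type, raised to a detection level and taken to log2. That level was the higher of the array type's median and the 95th percentile of 34 control probe sets without a mouse target. A probe set at or below it in both lines was not measured, and a ratio with 1 line below it is a bound. Symbols came from GEO's platform annotation (29131 of 36701 probe sets had 1 symbol, 724 several, 6846 none), and 36 of 36 member symbols matched RefSeq by gene ID. Suffix letters before "_at" mark possible cross-hybridisation, incomplete sequence or relaxed probe selection, depending on the letter. No test was possible with 1 array per group, so counts past 2-fold and 1.5-fold stand beside the share of all measured probe sets. The genes given in full were the 4 with the largest fold per comparison and direction, the catalytic subunits, Psmd4, Psmd14, the chaperones, probe sets past 2-fold and probe sets that disagreed; the remaining members are given by group. Alternatives were other scalings, floors, units, suffixes and fold thresholds. Members and gene lists were chosen with earlier results of these data known. Scripts (Python 3.11.15, pandas 2.3.3, numpy 2.4.6, matplotlib 3.10.9) were tested on simulated data.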

Additional observations from a re-analysis of the deposited data

How the results depend on the processing

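No paired analysis was possible because each group holds 1 array. The median log2 ratio over all members in OP9 over AGM-s3-A7 stayed between 0.12 and 0.24 over 11 alternatives. With values as deposited, the medians for AGM-s3-A9 over AGM-s3-A7 were 0.73 (core 0.69, regulatory 0.79) with 9 probe sets at least 2-fold higher, and those for AGM-s3-A9 over OP9 turned to 0.49 (core 0.48, regulatory 0.49) with 7 higher and 0 lower; the unequal brightness of the arrays enters these values. Median scaling gave 0.26 for AGM-s3-A9 over AGM-s3-A7, also 0.26 for its regulatory particle, and 0 lower for AGM-s3-A9 over OP9. With the array type's median as floor, OP9 over AGM-s3-A7 had 1 higher and 1 lower, and AGM-s3-A9 over OP9 had 3 and 2. With no filter and no floor, the core median of AGM-s3-A9 over AGM-s3-A7 was -0.01, and the counts higher and lower were 2 and 3 there, 5 and 6 in OP9 over AGM-s3-A7, and 5 and 7 between the supportive lines. Without suffixed probe sets, OP9 over AGM-s3-A7 had a core median of 0.11 and a regulatory median of 0.24; the cause was not tested. A 1.5-fold threshold gave 5 higher for AGM-s3-A9 over AGM-s3-A7, 5 higher and 1 lower for OP9 over AGM-s3-A7, and 4 and 6 for AGM-s3-A9 over OP9. Of 468 values of single genes under alternatives, 402 stayed within 0.1 or, if past 2-fold, stayed past it; 58 moved by more than 0.1 below 2-fold, 6 newly passed 2-fold and 2 no longer did. The sign turned for 18 of the 468, 14 with values as deposited and 4 under other scalings. These 18 do not include a change of probe set. The Psmc3 probe set without a suffix had -0.91 in AGM-s3-A9 over OP9, where its brightest had 0.94. That of Psmb5 had -0.32 in AGM-s3-A9 over AGM-s3-A7, where its brightest had 0.51. Signs were the same for Psmc3 in AGM-s3-A9 over AGM-s3-A7 and for Psmb5 in AGM-s3-A9 over OP9. Many of the 468 could not change. A floor does not alter the ratio of a gene above it in both lines. A change of unit does not alter a gene with 1 probe set. The 402 is therefore not a measure of stability. Probe sets near the detection level have the least certain ratios.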
